A study of Mus musculus with 6 samples.

Results

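Semaphorins, plexins, ephrins, Eph receptors, Slits, Robos, netrins and UNC5 receptors are the ligands and receptors by which growing axons and vessels find their way, and 66 genes of these families were followed in ribosome-bound RNA of mouse lung pericytes. They were chosen by symbol, with earlier results of these data known. Only protein-coding genes of the GENCODE M21 annotation were taken. Their names began with Sema3 to Sema7, Plxna to Plxnd, Epha, Ephb, Efna, Efnb, Slit, Robo, Ntn1 to Ntn5 or Unc5a to Unc5d. Of the 67 such genes, 66 were among the 21603 genes of the files, and Ntn3 was not analysed here. Unc5cl fits the symbol pattern but encodes a UNC5C-like protein that is not a netrin receptor. The 66 genes comprise 20 semaphorins, 9 plexins, 14 Eph receptors, 8 ephrins, 7 Slit and Robo genes, 3 netrins and 5 genes with an Unc5 symbol.

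The samples were lungs of C57BL/6 mice at postnatal day (P) 8, with 3 control and 3 Yap1,Wwtr1 iPCKO (inducible pericyte-specific knockout) samples, a comparison that asks what pericytes lacking the transcriptional co-activators YAP1 and TAZ (encoded by Wwtr1) translate differently. Controls were Yap1 lox/+ Wwtr1 lox/+ Rpl22 lox/+ and mutants Rpl22 lox/+ with both Yap1 and Wwtr1 lox/lox, labelled Yap1+/-;Wwtr1+/- and Yap1-/-;Wwtr1-/-. Both groups carried Pdgfrb(BAC)-CreERT2 and received tamoxifen after birth, so controls also lost a copy of each gene and no group without recombination was measured. In these RiboTag mice, Cre switches RPL22, a protein of the large ribosomal subunit, to an HA-tagged form, and an anti-HA precipitate of whole lung then holds RNA on tagged ribosomes. The recovered RNA therefore depends on where the Pdgfrb transgene is active and on how much untagged RNA comes along. Values are RPKM, reads divided by exon length and by library size, so levels of different genes can be set side by side per length.

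Semaphorins are secreted or membrane-bound ligands whose main receptors are the plexins, often together with neuropilins as co-receptors. Ephrins are bound to the surface of one cell and the Eph receptor tyrosine kinases to that of its neighbour, and ephrin-B2 with EphB4 is the pair best known from arterial and venous vessels. Slits are secreted and bind Robo receptors, and netrins act through DCC, neogenin and the UNC5 receptors, of which UNC5B is best known from endothelium. In blood vessels these families take part in sprouting, in the repulsion of endothelial tips and in the contact between mural cells and endothelium.

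All 8 pericyte markers examined were present in every sample, and RNA of other lung cells was present as well. Pdgfrb was at 1369 to 1666 RPKM in controls and at 1193 to 1447 RPKM in iPCKO samples, while Cdh5, an endothelial cadherin, was at 31.6 to 34.5 RPKM and 33.4 to 34.7 RPKM. Of the 8 markers Cspg4 (log2 fold change 1.06), Kcnj8 (1.03) and Abcc9 (1.15) rose and Notch3 (-0.94) fell, and their summed level was 2906 to 3644 RPKM in controls and 2697 to 3318 RPKM in iPCKO samples. The lowest, Abcc9, was at 11.3 to 13.8 RPKM in controls. Low values imply a depth of 14.21 to 39.64 M reads per sample. Yap1 was lower in every iPCKO sample, at 5.61 ± 0.314 RPKM (SD, n = 3) against 12.4 ± 0.859 RPKM. Wwtr1 was at 62 ± 1.63 RPKM against 60.4 ± 9.48 RPKM. A value over all exons can include reads from outside the floxed part, so for neither gene does it check the deletion. The mean of 4 Y-linked transcripts was 8.76 RPKM in control 1 and 10.2 RPKM in control 3 and at most 0.02 RPKM in control 2 and every iPCKO sample, so sex differed with the groups in part.

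Of the 66 genes, 53 reached 1 RPKM in 3 samples or more and were tested among 12034 genes with limma on log2(RPKM + 0.1). A gene passed where its adjusted p was below 0.01 and its log2 fold change exceeded 0.5 in either direction. The 6 members that rose in iPCKO samples were Ephb1, Sema4a, Sema4d, Sema5a, Sema7a and Unc5b, and 1, Unc5d, fell. That is 7 of 53 tested members, or 13.2%, beside 6.79% of all tested genes. The 6 higher members stand beside 4.11% of all genes that rose, and the 1 lower member beside 2.68% that fell. The median log2 fold change was -0.08 over the tested members and 0.00 over all tested genes. The 3 samples of each group did not overlap for 23 tested members, or 43.4%, beside 35.5% of all tested genes. Unc5d and Ephb1 passed the filter through 1 group only, where they were high. In whole-tissue precipitates, fewer cells that express a gene and less of its RNA per cell cannot be told apart.

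**Figure D1:**
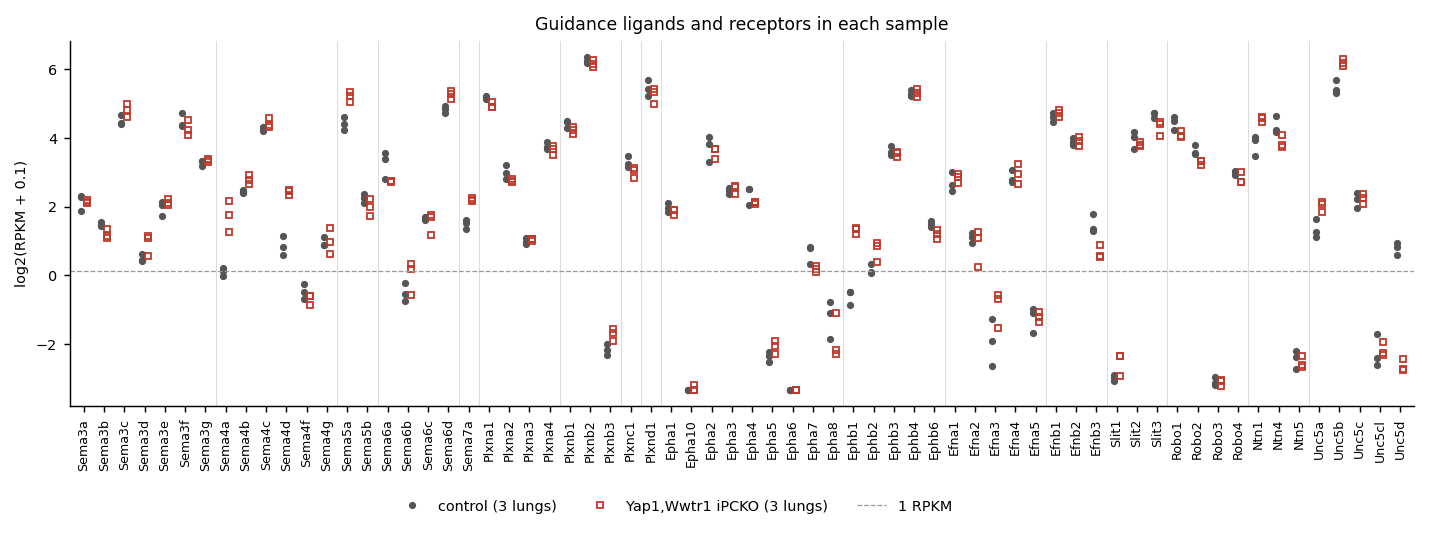
Level of each of the 66 members as log2(RPKM + 0.1) in 3 control samples (filled circles) and 3 Yap1,Wwtr1 iPCKO samples (open squares), ordered by family; the dashed line marks 1 RPKM. Plxnb2 lies highest, and Unc5d is above the line in all controls and far below it in all iPCKO samples.

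Netrin receptors held both the greatest loss and the highest level among the changed genes. Unc5d (ENSMUSG00000063626, chromosome 8, 28646717 to 29219636 on GRCm38) encodes a UNC5 receptor that also binds FLRT proteins. It had 1.83, 1.40 and 1.69 RPKM in controls 1, 2 and 3 and 0.085, 0.051 and 0.047 RPKM in iPCKO samples 1, 2 and 3. All iPCKO samples lay far below all controls, with a mean of 3.72% of that in controls. This gave a log2 fold change of -3.43 ± 0.27 (SE), with an adjusted p of 0.000131. With depths read from the low values and the gene's annotated exons, these levels correspond to about 225 to 539 reads in controls and 6 to 19 reads in iPCKO samples, so the loss does not rest on single reads.

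Unc5b (ENSMUSG00000020099, chromosome 10, 60762593 to 60831581), the UNC5 receptor of vessels, was the second most abundant member in controls. Its levels were 52.0, 39.5 and 41.9 RPKM in controls and 79.6, 73.1 and 68.8 RPKM in iPCKO samples. The groups did not overlap, and the log2 fold change was 0.74 ± 0.12 (SE), adjusted p = 0.00441. The summed level of 10 endothelial markers was 238 to 259 RPKM in controls and 247 to 273 RPKM in iPCKO samples, and 1 of the 10, Kdr, passed the test. Of the 10, 5 did not overlap between the groups, beside 35.5% of all tested genes, and these differed in sign. Of these, Kdr (log2 fold change 0.77) and Esam (0.44) had higher values, and Emcn (-0.45), Egfl7 (-0.28) and Erg (-0.12) lower. Those other than Kdr did not pass, with adjusted p from 0.0469 for Egfl7 to 0.401 for Erg. The part of endothelial cells in the level of Unc5b was not tested.

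Unc5a had 3.04, 2.31 and 2.07 RPKM in controls and 4.31, 4.14 and 3.47 RPKM in iPCKO samples. Its groups did not overlap either, yet its adjusted p of 0.0249 (log2 fold change 0.67) missed the threshold. Unc5c had means of 4.53 and 4.62 RPKM, and the 95% interval of its log2 fold change ran from -0.28 to 0.35. Unc5cl was listed below 0.21 RPKM in every sample and was not tested. Summed over the Unc5 genes, controls had 53.2 ± 6.81 RPKM (SD, n = 3) and iPCKO samples 82.6 ± 5.45 RPKM, most of it Unc5b.

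The netrins themselves differed in sign. Ntn1, the ligand of DCC, neogenin and UNC5 receptors, had 16.4, 15.2 and 11.0 RPKM in controls and 21.9, 24.3 and 24.0 RPKM in iPCKO samples. The log2 fold change, 0.73, was about that of Unc5b, but its adjusted p was 0.0106. Ntn4, a netrin of basement membranes that binds laminin and was the most abundant netrin in controls, had 25.1, 18.9 and 18 RPKM and then 17.1, 13.7 and 13.4 RPKM. Its groups were likewise apart, with a log2 fold change of -0.48 and an adjusted p of 0.0626. Ntn5 was at most 0.117 RPKM in any sample. Among the other netrin receptors, Dcc was at most 0.0522 RPKM and was not tested, while Neo1, which encodes neogenin, had 19.4 to 19.8 RPKM in controls and 21.2 to 25.1 RPKM in iPCKO samples (log2 fold change 0.26, adjusted p = 0.0906).

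**Figure D2:**
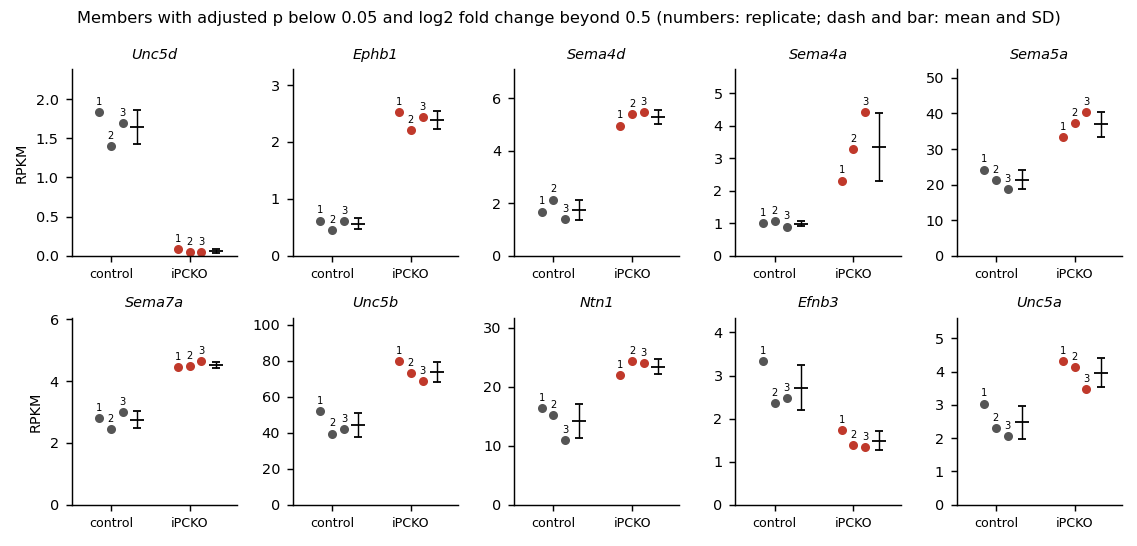
RPKM of the 10 members with an adjusted p below 0.05 and a log2 fold change beyond 0.5 either way, for control samples (grey) and iPCKO samples (red) by replicate number, with mean and SD. In each panel the 3 iPCKO points lie on one side of the 3 control points; Unc5d is the member closest to 0 in iPCKO samples, and Ntn1, Efnb3 and Unc5a have adjusted p between 0.0106 and 0.0249.

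Among the semaphorins, 4 of 18 tested genes rose and none fell, beside 4.11% and 2.68% of all tested genes. Sema4d and Sema4a are transmembrane class 4 semaphorins known from lymphocytes and other immune cells as well as from epithelium and endothelium, and Sema4d is also found on platelets. Sema4d (ENSMUSG00000021451, chromosome 13, 51685529 to 51793747) had 1.68, 2.14 and 1.40 RPKM in controls and 4.96, 5.39 and 5.46 RPKM in iPCKO samples. Every iPCKO sample was above every control, with a log2 fold change of 1.56 ± 0.16 (SE) and an adjusted p of 0.000411. Sema4a (ENSMUSG00000028064, chromosome 3, 88435959 to 88461182) had 1, 1.06 and 0.896 RPKM and then 2.31, 3.29 and 4.41 RPKM. Its groups were also apart, but its iPCKO samples were spread more widely than those of Sema4d, and the log2 fold change was 1.62 ± 0.22 (SE), adjusted p = 0.00197.

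Summed markers of blood cells and of epithelium were higher in iPCKO samples as well, though not each marker was. The counts of markers below stand beside 4.11% of all tested genes that passed as higher and 2.68% as lower. The summed level of 10 leukocyte markers was 58.2 to 81.5 RPKM in controls and 146, 194 and 251 RPKM in iPCKO samples 1, 2 and 3, and 8 of the 10 passed the test. Neutrophil markers summed to 83.4 to 122 RPKM and then 440, 1949 and 4792 RPKM, with 6 of 10 higher. Platelet markers summed to 5.86 to 7.99 RPKM and then 22.4, 44.5 and 66.1 RPKM, with 6 of 6 tested genes higher. Macrophage markers summed to 15.2 to 24.2 RPKM and then 27.8 to 51.5 RPKM, with 1 of 7 tested genes higher. Epithelial markers summed to 577 to 665 RPKM and then 846 to 900 RPKM, with 2 of 10 higher, Sftpb and Hopx, and mesothelial markers to 3.94 to 5.58 RPKM and then 7.35 to 9.76 RPKM. For all 6 lists the lowest iPCKO sum lay above the highest control sum, and no gene of these lists was at 0 in all samples. Fibroblast markers summed to 151 to 172 RPKM and then 112 to 132 RPKM, with 1 of 6 higher and 1 lower, smooth muscle markers to 1303 to 1479 RPKM and then 1428 to 1567 RPKM, with 2 of 6 higher, and no Schwann or neuron marker was high enough to be tested. Sema4a was lowest in iPCKO 1 and highest in iPCKO 3, as were the leukocyte, neutrophil, platelet and epithelial sums, and Sema4d was nearly level across the iPCKO samples. The part of blood cells and epithelium in the levels of Sema4a and Sema4d was not tested.

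**Figure D3:**
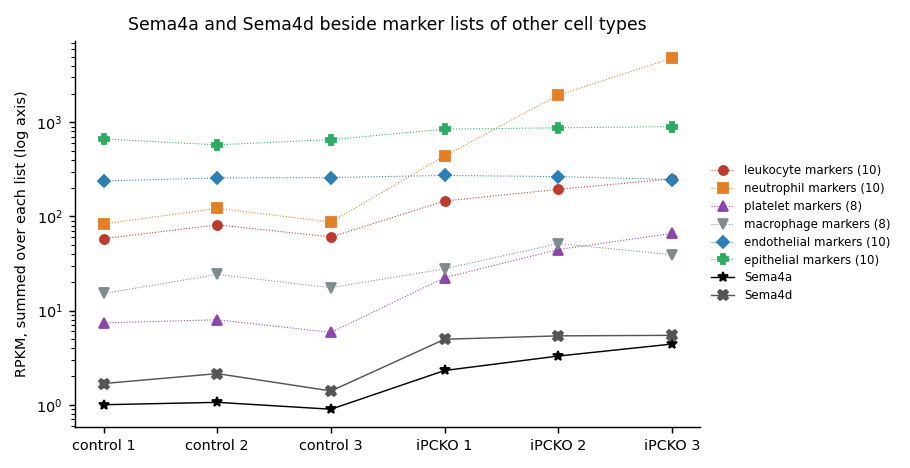
Summed RPKM of marker lists of other cell types (number of genes in brackets) and RPKM of Sema4a and Sema4d in each sample, on a log axis; lines join the values of a list and imply no order of samples. Leukocyte, neutrophil, platelet, macrophage and epithelial sums lie higher in all iPCKO samples, whereas the endothelial sum stays between 238 and 273 RPKM.

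Sema5a (ENSMUSG00000022231, chromosome 15, 32244810 to 32696341), a transmembrane semaphorin with thrombospondin repeats that can attract or repel, was the most abundant semaphorin that rose. It had 24.2, 21.2 and 18.8 RPKM in controls and 33.3, 37.3 and 40.3 RPKM in iPCKO samples. The groups were well apart, with a log2 fold change of 0.79 ± 0.12 (SE) and an adjusted p of 0.00278. Sema7a (ENSMUSG00000038264, chromosome 9, 57940112 to 57962865), a GPI-anchored semaphorin that binds plexin C1 and integrins and is also found on lymphocytes and red blood cells, had 2.80, 2.45 and 2.99 RPKM and then 4.44, 4.49 and 4.64 RPKM. Its iPCKO samples were close together above all controls (log2 fold change 0.70 ± 0.11 SE, adjusted p = 0.00384). The part of blood cells in its level was not tested either.

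No other semaphorin of classes 4 to 6 passed the test. Sema6d, a transmembrane ligand of plexin A1 and the most abundant semaphorin of the controls, had 30.2, 26.3 and 28.5 RPKM in controls and 41.3, 34.9 and 39.1 RPKM in iPCKO samples. The groups were apart, but the log2 fold change of 0.44 was under the threshold (adjusted p = 0.0182). Sema4c, a class 4 ligand of plexin B2, had 20.1, 18.2 and 18.7 RPKM and then 23.9, 20.8 and 19.8 RPKM, so the groups overlapped (log2 fold change 0.17, adjusted p = 0.276). Sema6a had 6.88, 10.3 and 11.8 RPKM in controls and 6.64, 6.60 and 6.45 RPKM in iPCKO samples, with a log2 fold change of -0.51 and an adjusted p of 0.0882. The control samples of Sema6a varied far more than its iPCKO samples, which lay just under the lowest control.

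No secreted class 3 semaphorin passed the test, beside 6.79% of all tested genes. Sema3c, a class 3 ligand of neuropilins and plexin D1 and the most abundant of the 7, had 21.8, 25.3 and 21 RPKM in controls and 28.2, 24.3 and 31.8 RPKM in iPCKO samples, and the groups overlapped (log2 fold change 0.30, adjusted p = 0.13). The log2 fold changes of the class ran from -0.28 in Sema3b to 0.44 in Sema3d. Summed over the class, controls had 67.1 ± 2.23 RPKM (SD, n = 3) and iPCKO samples 70.5 ± 3.66 RPKM, against 29.5 ± 0.906 RPKM and 39.4 ± 0.909 RPKM for class 4. Over all 20 semaphorins it was 167 ± 4.84 RPKM and 204 ± 6.5 RPKM.

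Plexins are the receptors of these ligands. Of 8 tested plexins none passed, beside 6.79% of all tested genes, and 7 had a negative log2 fold change, between -0.28 and -0.09, with Plxna3 at 0.04. Plxnb2, a receptor of class 4 semaphorins, was the most abundant of all members, with 81.6, 72.3 and 76.3 RPKM in controls and 78.0, 71.3 and 67.4 RPKM in iPCKO samples. The groups overlapped, and the 95% interval of its log2 fold change was -0.31 to 0.13. Plxnb1, the high-affinity receptor of SEMA4D, was at 21.3 ± 1.54 RPKM (SD, n = 3) and 18.6 ± 1.3 RPKM (interval -0.41 to 0.02). These intervals leave out a rise of the size seen in Sema4d itself.

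Plxnd1, which vessels express, had 52.0, 43.2 and 37.2 RPKM in controls and 40.6, 43.3 and 31.6 RPKM in iPCKO samples, with overlapping groups (adjusted p = 0.444). Plxna1, a receptor of SEMA6D, had 37.4, 35.1 and 36.4 RPKM and then 33.3, 29.8 and 29.9 RPKM. Its groups did not overlap, but the log2 fold change was only -0.23 (adjusted p = 0.109). Plxnc1, the plexin that binds SEMA7A, had 9.32, 11.1 and 8.80 RPKM and then 7.09, 8.61 and 8.27 RPKM (log2 fold change -0.28, adjusted p = 0.155). Plxnb3, a receptor reported for SEMA5A, was at most 0.238 RPKM in any sample. Together the plexins summed to 212 ± 11.4 RPKM (SD, n = 3) among controls and 190 ± 11 RPKM among iPCKO samples.

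The neuropilins, co-receptors of class 3 semaphorins and of VEGF, differed in sign. Nrp1 had 75.1, 81.1 and 83.0 RPKM in controls and 63.6, 59.4 and 56.8 RPKM in iPCKO samples, with a log2 fold change of -0.41 and an adjusted p of 0.0169. Nrp2 had 6.84, 8.46 and 8.96 RPKM and then 11.7, 15.3 and 12.2 RPKM, with a log2 fold change of 0.69 and an adjusted p of 0.0118. Both were apart between the groups and both missed the threshold. Timd2, a receptor of SEMA4A, was at most 0.0083 RPKM in any sample, and Cd72, a receptor of SEMA4D on B cells, was at most 0.398 RPKM.

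**Figure D4:**
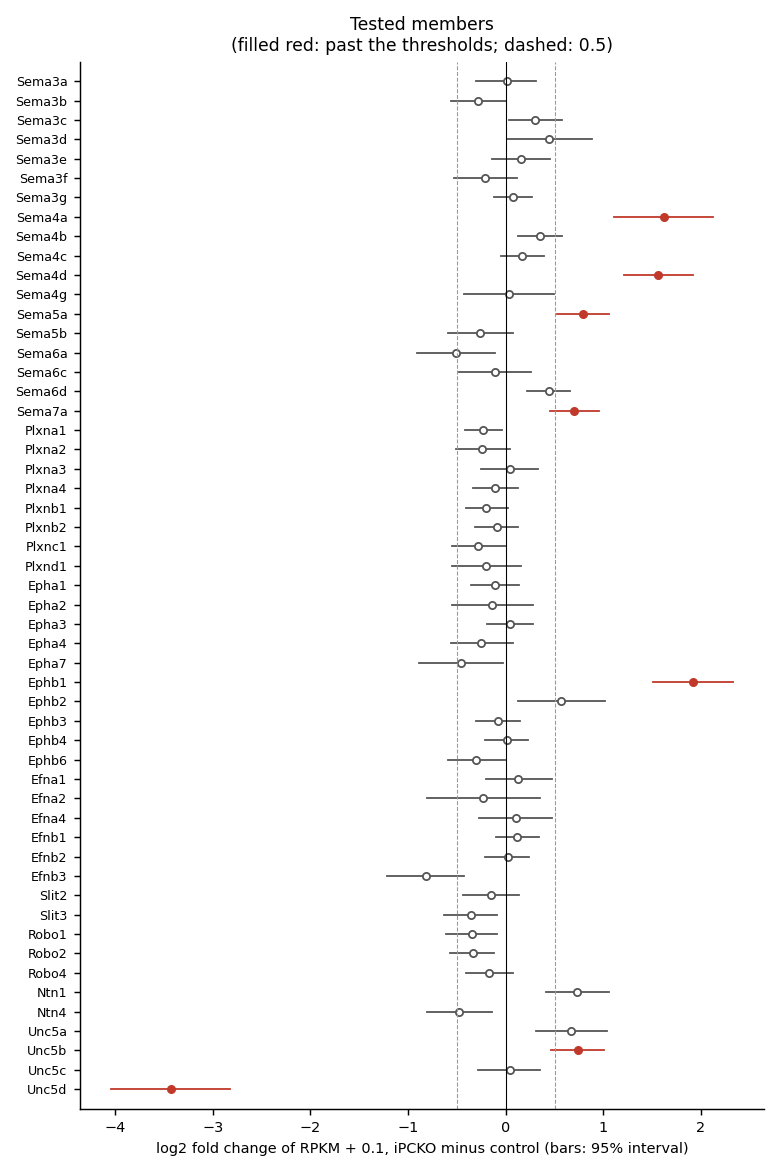
Log2 fold change of RPKM + 0.1 (iPCKO minus control) with 95% interval for the 53 tested members in family order; filled red points passed the thresholds and dashed lines mark 0.5 either way. Plexins, Slits and Robos lie mostly left of 0, class 4 semaphorins right of it, and Unc5d stands apart at -3.43.

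Among 10 tested Eph receptors and 6 tested ephrins, Ephb1 was the 1 gene that passed, a share near the 6.79% of all tested genes. Ephb1 (ENSMUSG00000032537, chromosome 9, 101922128 to 102354693), a receptor of ephrin-Bs, had 0.618, 0.451 and 0.613 RPKM in controls and 2.52, 2.21 and 2.43 RPKM in iPCKO samples. All iPCKO samples were above all controls, at 4.26 times the control mean, with a log2 fold change of 1.92 ± 0.18 (SE) and an adjusted p of 0.000302. About 55 to 149 reads stood behind the control values and 242 to 612 behind the iPCKO values. Ephb2, a related receptor, went from 0.946, 1.16 and 0.965 RPKM to 1.22, 1.71 and 1.82 RPKM (log2 fold change 0.57, adjusted p = 0.0869).

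Ephb4, the receptor of ephrin-B2 in veins and the most abundant Eph receptor, had 42.4, 37.4 and 39.0 RPKM in controls and 43.3, 40.0 and 36.7 RPKM in iPCKO samples. The groups overlapped throughout, and the 95% interval of the log2 fold change was -0.21 to 0.23. Ephb1 thus remained far below Ephb4 in iPCKO samples, at 2.39 ± 0.162 RPKM (SD, n = 3) against 40 ± 3.31 RPKM. Epha2, the most abundant EphA receptor, had 9.69, 14.1 and 16.2 RPKM and then 12.7, 12.8 and 10.3 RPKM, with an adjusted p of 0.664. Of the 9 EphA genes, 5 were tested and none passed, beside 6.79% of all tested genes. Epha6 was listed at 0 in every sample.

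None of the ephrin-B ligands of these receptors passed the test. Efnb1 had 26.2, 24.6 and 22.2 RPKM in controls and 28.4, 26.5 and 24.4 RPKM in iPCKO samples, and its 95% interval was -0.10 to 0.34. Efnb2, which mural cells and arteries express, was at 14.8 ± 0.995 RPKM (SD, n = 3) and 15 ± 1.36 RPKM, with an interval of -0.21 to 0.24. Efnb3, the least abundant ephrin-B, had 3.33, 2.36 and 2.47 RPKM and then 1.74, 1.38 and 1.34 RPKM. The groups of Efnb3 did not overlap, with a log2 fold change of -0.82 at an adjusted p of 0.0148. Among ephrin-As, Efna4 was the most abundant, with 8.35, 6.71 and 6.49 RPKM and then 9.36, 7.73 and 6.19 RPKM (adjusted p = 0.726).

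No Slit or Robo gene passed, beside 6.79% of all tested genes. All 5 that were tested had a negative log2 fold change, between -0.36 and -0.15, where the median of all tested genes was 0.00. Slit3, the most abundant Slit, had 26.2, 23.8 and 26.2 RPKM in controls and 16.6, 21.1 and 22.1 RPKM in iPCKO samples, with groups that did not overlap (log2 fold change -0.36, adjusted p = 0.0801). Robo1, a Slit receptor, had 24.3, 22.5 and 18.8 RPKM and then 16.1, 18.5 and 16.6 RPKM (log2 fold change -0.35, adjusted p = 0.0745). Robo2 was apart as well, at 12.4 ± 1.26 RPKM (SD, n = 3) and 9.71 ± 0.46 RPKM. Slit2 and the endothelial receptor Robo4 overlapped between the groups. The sum over the 7 genes was 83.2 ± 0.639 RPKM in controls and 67.8 ± 3.71 RPKM in iPCKO samples.

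**Figure D5:**
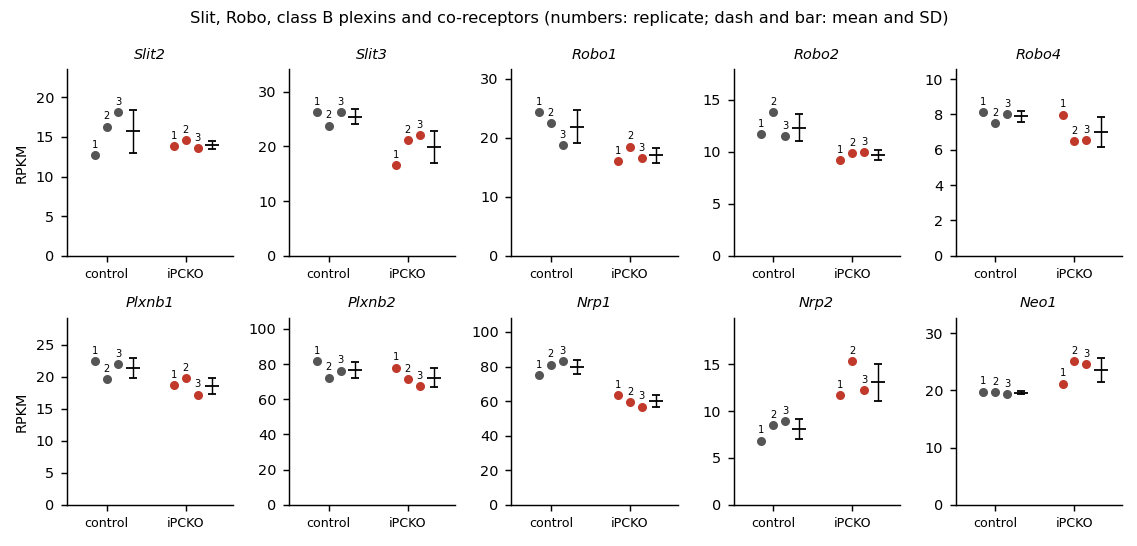
RPKM of Slits, Robos, class B plexins, neuropilins and neogenin in control samples (grey) and iPCKO samples (red) by replicate number, with mean and SD. Slit3, Robo1, Robo2 and Nrp1 lie lower in all iPCKO samples and Nrp2 and Neo1 higher, and none of the 10 genes passed the thresholds.

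Downstream of the receptors, a list of 98 co-receptors and effectors was examined, of which 97 were in the files and 77 were tested. Of these, 4 passed as higher, beside 4.11% of all tested genes, and 5 as lower, beside 2.68%, and the median log2 fold change was -0.02. Those that rose included Kdr, a VEGF receptor that can join semaphorin receptor complexes (0.77), Gpc1, a glypican that binds Slit (0.97), and the plexin effector Rapgef2, a Rap exchange factor (0.59). Lower were Sh2d3c, an adaptor of Eph receptors (-1.43), Mcam, a cell adhesion molecule of pericytes and endothelium that binds netrin-1 (-1.04), Ptk2, the focal adhesion kinase (-0.85), Ablim1, an actin-binding LIM protein (-0.71), and Erbb2, a kinase that associates with class B plexins (-0.53). Mcam was by far the most abundant of the 9, with 714, 657 and 759 RPKM in controls and 344, 362 and 325 RPKM in iPCKO samples. Sh2d3c had 36.2, 30.4 and 35.7 RPKM and then 14.3, 11.6 and 11.9 RPKM.

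The calls differed in whether they held when 1 sample was left out. Each of the 6 samples was left out in turn with the set of tested genes held fixed. Among all tested genes, 382 to 899 passed in these fits, against 817 in the main fit. A lost call therefore does not by itself show that it rested on the sample left out. Sema4d kept its call in every such fit. Ephb1 and Unc5d did too, but each reaches 1 RPKM only in the 3 samples of 1 group and would not have been tested had the filter been applied again without any of these. Sema4a lost its call without control 3 or iPCKO 2, at an adjusted p of 0.011 in both. Sema5a lost it without control 2, control 3, iPCKO 2 or iPCKO 3, with adjusted p up to 0.014. Unc5b kept it only without control 1, with adjusted p up to 0.024 otherwise, and Sema7a only without iPCKO 1, with adjusted p up to 0.021. Their log2 fold changes stayed between 0.66 and 0.86 for Unc5b and between 0.63 and 0.76 for Sema7a.

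With Y-linked transcripts as a covariate, a choice made after seeing the data, 2 of the 7 members passed, Ephb1 (adjusted p = 0.005) and Unc5d (adjusted p = 0.0063). Both had entered the test through 1 group only, where they were high, so their passing is no separate check. The log2 fold changes of all 7 kept their sign in that fit, for example 0.89 for Unc5b and 1.25 for Sema4d. Control 2, which has next to no Y-linked transcripts, lay outside the range of the iPCKO samples for all 7. That follows from picking members whose groups did not overlap, so neither it nor the kept signs is a check on sex.

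Promoter sequence was looked at because YAP1 and TAZ reach DNA through TEAD factors, whose core motif is GGAATG. On the opposite strand the same motif reads CATTCC. RefSeq promoter windows on GRCm38.p6, from 250 bases before to 50 bases after a gene's start, were at hand for 57 members. The motif occurred on either strand in 8 of the 57 members, or 14%, beside 15.3% of 16191 protein-coding genes of the files and 16.6% of all 27025 genes with such a window. Of the 6 members past the thresholds with a window, Sema4a held it, in 1 of its 4 windows. CG dinucleotides were more frequent than motifs, with a median of 19 per window among members, 14 among protein-coding genes of the files and 7 among all promoters. The 3 windows of Sema4d stood at the low end, with 2 or 3. The 250 bases before the start are printed for 4 members that rose, 5′ to 3′ on the strand of the gene and with CG in capitals, because they are the changed genes with a single window each. The 30 bases of Sema4a, on the minus strand at chr3:88459011-88459040, have the motif in capitals and overlap exons annotated as UTR in other transcripts of the gene.
Unc5b: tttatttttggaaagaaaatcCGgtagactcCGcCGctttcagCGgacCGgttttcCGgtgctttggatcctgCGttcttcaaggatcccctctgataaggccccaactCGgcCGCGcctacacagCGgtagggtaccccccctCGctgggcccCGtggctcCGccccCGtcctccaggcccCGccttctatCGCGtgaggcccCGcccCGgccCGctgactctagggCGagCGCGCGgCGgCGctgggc
Sema5a: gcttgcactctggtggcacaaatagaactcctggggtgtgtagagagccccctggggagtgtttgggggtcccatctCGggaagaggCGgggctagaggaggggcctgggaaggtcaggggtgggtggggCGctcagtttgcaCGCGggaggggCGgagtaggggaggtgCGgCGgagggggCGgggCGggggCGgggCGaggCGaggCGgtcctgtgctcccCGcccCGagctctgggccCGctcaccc
Ephb1: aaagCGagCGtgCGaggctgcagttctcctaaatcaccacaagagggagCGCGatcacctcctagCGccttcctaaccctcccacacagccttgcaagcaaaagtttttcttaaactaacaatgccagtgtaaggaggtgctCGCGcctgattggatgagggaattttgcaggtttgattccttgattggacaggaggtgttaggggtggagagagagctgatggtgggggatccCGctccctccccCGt
Sema7a: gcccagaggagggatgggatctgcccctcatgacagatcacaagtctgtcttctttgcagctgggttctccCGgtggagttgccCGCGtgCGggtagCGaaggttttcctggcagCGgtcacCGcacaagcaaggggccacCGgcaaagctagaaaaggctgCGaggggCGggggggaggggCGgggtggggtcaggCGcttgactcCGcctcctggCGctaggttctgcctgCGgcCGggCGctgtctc
Sema4a: ctgagcgcctggCATTCCagggggagggaa
Unc5b lies at chr10:60831582-60831831 on the minus strand, Sema5a at chr15:32244563-32244812 on the plus strand, Ephb1 at chr9:102354694-102354943 on the minus strand and Sema7a at chr9:57939862-57940111 on the plus strand. Their 250 bases hold 27, 17, 10 and 17 CG dinucleotides and no match to the motif, which says only that these letters are not in this window.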

How the data were processed

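Ribosome-bound RNA of 3 control and 3 Yap1,Wwtr1 iPCKO lungs at P8 was precipitated with anti-HA antibody and sequenced as stranded total RNA; both sexes were combined by the study. The authors mapped reads to mm10 with TopHat, counted them with HTSeq 0.6.1 and used DESeq2, per the submitters' processing notes. The authors deposited RPKM per Ensembl gene for each sample, 21603 genes each, and the exon length used is not given in the sources used here. GENCODE M21, on the same assembly, gave symbols for 21375 genes, and coordinates are 1-based.

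On the deposited RPKM, log2(RPKM + 0.1) was fitted in limma 3.58.1 under R 4.3.3 (lmFit, eBayes with an intensity trend, Benjamini-Hochberg adjustment over 12034 genes that reached 1 RPKM in 3 samples or more). Differences on this scale understate the change of low genes. Thresholds were those of the study, 0.01 for the adjusted p and 0.5 for the size of the log2 fold change. An exact permutation test of 3 against 3 samples cannot go below p = 0.1 and was not used. The method was tested on simulated data. Low RPKM values move in steps of whole reads, which gave the depth of each sample; between 65.9% and 76.7% of values of at most 10 reads lay within 0.02 reads of a whole number, so read numbers are approximate and cover counting only. The sources used here do not say that all samples of a group came from separate animals. Y-linked transcripts set control 2 apart from controls 1 and 3, and no such mark separates the other samples of a group. P-values therefore measure the spread between these samples.

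The members, marker lists and effector list were chosen with earlier results of these data known. Values in all samples are given for members past the thresholds, those with an adjusted p below 0.05 and a log2 fold change beyond 0.5, and the most abundant member of each subfamily; other members are given by range, or singly beside a ligand or receptor. Effectors are named if past the thresholds, with Nrp1, Nrp2, Dcc and Neo1; 1 effector that passed is not reported here. Timd2, Cd72 and the other members given singly were chosen after their values were seen. Alternatives were pseudocounts of 1 and 0.01, no filter, 1 RPKM in all 6 samples, median-ratio scaling, no intensity trend, a replicate block, an adjusted p of 0.05, a log2 fold change of 1 and each sample left out; Y-linked transcripts as a covariate and samples without them were added after seeing the data. Tables were made with pandas 2.3.3 in Python 3.11.15 and plots with matplotlib 3.10.9.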

Additional observations from a re-analysis of the deposited data

How the results depend on the processing

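Of 102 log2 fold changes of the 7 called members under the alternatives, 34 missed the thresholds and 0 were reversed in sign. The groups of all 7 did not overlap, so leaving out a sample could not reverse a sign. The 0 is therefore no separate check of these calls. The count of 7 guidance genes was the same with either other pseudocount, with median-ratio scaling and without the intensity trend. Without the filter on low values it was 1 (Unc5d) of 66 tested, with 95 genes in all and 1 of the effector list. Asking for 1 RPKM in all 6 samples removes Unc5d, Ephb1 and Sema4a from the test. The count was then 4 of 48 tested members, beside 702 of 11389 genes. For a log2 fold change above 1 it was 4, with 411 genes in all and 2 effectors. With an adjusted p below 0.05 it was 10 (1313 genes, 14 effectors). Leaving out a sample, with the tested genes held fixed, gave 3 to 7 guidance genes, 382 to 899 genes in all and 5 to 10 effectors. The lowest count of guidance genes, 3, came without control 3 or iPCKO 2, and it was 4 without control 2 or iPCKO 3. With Y-linked transcripts as a covariate, 2 guidance genes, 119 genes in all and 1 effector passed, and in the samples without such transcripts (1 control, 3 iPCKO samples, the lone control assumed to vary like the others) 0, 31 and 0 did, with adjusted p between 0.014 and 0.097 for the 7 in limma; the cause of these differences was not tested. In the main test 24 members (45.3%) had an unadjusted p under 0.05, beside 29.7% of all tested genes. Same-numbered samples deviated together with r = 0.238, 0.092 and 0.022, and different-numbered samples with r from -0.298 to 0.273. These values do not settle whether a number marks a pair. With the replicate block 9 guidance genes passed in limma, Ntn1 (adjusted p = 0.0096) and Efnb3 (0.0072) being added, with 922 genes in all and 12 effectors. Without read counts, the error of low members such as Unc5d in iPCKO samples cannot be modelled, and of the 46 tested members that did not pass, 22 had a 95% interval within 0.5 either way.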
